A study of Mus musculus with 5 samples.

Results

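The microtubule, motor and centrosome genes comprise tubulins, the factors that fold, cut, modify and bind microtubules, the kinesin and dynein motors, and genes of the centrosome and the cilium. Members were chosen by gene name: every probe with a single symbol in the platform annotation that belongs to one of these families was taken, which gave 128 genes from 169 of the 21446 probes. Of these, 126 genes, from 164 probes, had a value on all 5 arrays and form the set described here, out of 8825 genes measured in this way. Cep162 and the katanin subunit Katna1 had no value on array 4 and entered no test. On the remaining 4 arrays Katna1 ran from 0.22 to 0.62, and the 2 probes of Cep162 had means of -0.38 and 0.22.

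The RNA of adult C57/B6 mouse retina was compared with that of postnatal day 1 Swiss-Webster mouse cortex. There was 1 pool of RNA per tissue, and the same 2 pools were hybridised to 5 two-colour Agilent arrays, with retina in Cy5 and the cortex reference in Cy3 on each. Tissue, age, strain and dye therefore change together and cannot be told apart, the labels call the arrays technical replicates, and the p-values measure labelling and hybridisation error alone. The spread between animals was not measured, and fewer cells of a type and less RNA per cell cannot be told apart in such bulk RNA.

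Microtubules are hollow polymers of alpha- and beta-tubulin that grow and shrink at their plus ends. Growing neurons keep many dynamic microtubules in their axons and growth cones, kinesins carry cargo mostly toward plus ends and cytoplasmic dynein toward minus ends, and dividing cells rebuild the same polymer into a spindle. A photoreceptor carries its outer segment on a modified cilium, whose axoneme grows from a basal body containing centrins and is built by intraflagellar transport.

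All values are log2 of the retina pool's signal divided by the cortex pool's, given per array or as mean ± SD over n = 5 arrays, so that -1 stands for a level 2-fold lower in retina. They carry no absolute level, and levels of different genes were not compared. The log base (10 in the deposited values) and the direction are likely rather than stated in the sources used here. A ratio deposited as cortex over retina would reverse all signs given here. The rod and cone markers checked below would then be lower in retina, and the cortical neuron markers higher. Values read as log2 in place of log10 would be smaller, and 0 members would pass the 2-fold test used below. The tissue labels were checked on listed markers. All 4 measured rod and cone markers and both measured inner retinal markers were higher in retina, and all 3 measured cortical neuron markers and all 4 immature neuron markers were lower. Of glial markers 1 of 2 measured was higher, of oligodendrocyte markers neither of 2 passed, and the only measured choroid plexus marker, Ttr, was lower (-1.40 ± 0.04).

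Genes of this set were more often lower than higher in retina. A gene is called higher or lower only where limma's test against a minimum of 2-fold gave an adjusted p below 0.05 over all 8825 genes. Of 126 measured members, 16 passed, or 12.7%, against 6.62% of all genes. Of these, 15 were lower in retina, or 11.9%, against 3.83% of all genes, and 1 was higher, or 0.79%, against 2.79% of all genes. The other 110 did not pass. The 15 lower genes were the tubulins Tubb2b, Tuba3a and Tuba1b, the stathmins Stmn4, Stmn1 and Stmn2, the microtubule-associated proteins Mapt, Map1b and Map2, the severing enzyme Spast, the dynein subunits Dynll2 and Dync1i1, the kinesin Kif23, the Lis1-binding Pafah1b3 and the centrosomal Cep70. The higher gene was the centrin Cetn4. The highest adjusted p among the called members was 0.0048, for Cetn4. None of them changed sign between arrays, which a call against a 2-fold minimum on the same arrays leaves little room for.

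The set as a whole, called genes included, also lay lower than all genes. The median log2 ratio of the 126 members was -0.21, against -0.0049 over all genes, and 86 members had a mean below 0. Against a ratio of 0, limma called 102 members, or 81.0%, where 73.6% of all genes were called. It called 69 members lower, or 54.8%, where 36.6% of all genes were lower, and 33 higher, or 26.2%, where 36.9% were higher. Within 0.5 log2 of 0 lay 75 of 126 members, or 59.5%, a smaller share than the 72.0% of all genes.

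**Figure D1:**
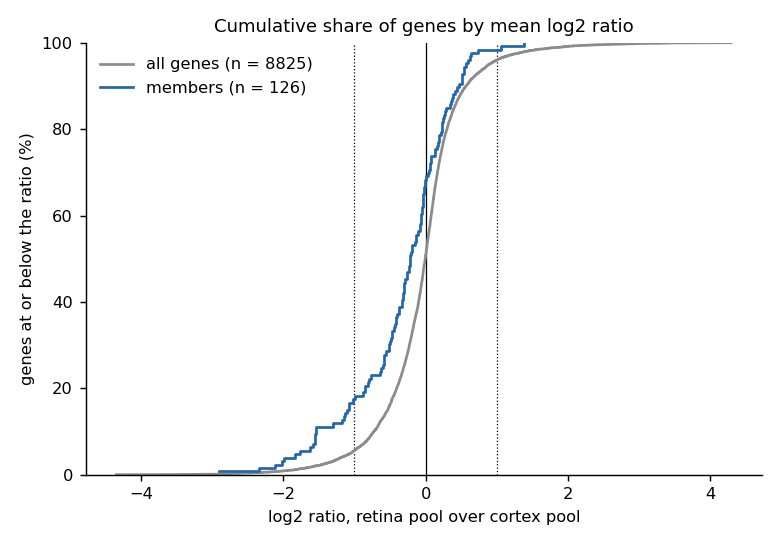
Cumulative share of genes (%) by mean log2 ratio over 5 arrays, for the 126 measured members and all 8825 genes, with the 2-fold limits dotted. The members' curve lies to the left of that of all genes in the negative range, and no member reached the far right, where Cetn4 at 1.38 was the highest.

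Arrays repeated the members' ratios closely. The SD over the arrays had a median of 0.090 log2 for the members and 0.085 for all genes, and 4 members exceeded 0.355, the 95th percentile of all genes. Pearson's r across the 126 members was between 0.934 and 0.986 for the 10 array pairs, a description of genes that are not independent. The largest SD was that of the spindle kinesin Kif15.

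The 12 role groups differed in how far they stood from 0. The lowest medians were those of the stathmins (-1.93) and the structural microtubule-associated proteins (-1.53), followed by the 2 severing enzymes (-0.81), the tubulin cofactors (-0.78) and the tubulins (-0.65). Dynein and dynactin (-0.26), kinesins (-0.17), centrosome genes (-0.14) and the plus-end, Lis1 and spindle group (-0.11) lay closer to 0. The medians of the gamma-tubulin ring complex (0.10), of cilium transport and transition zone genes (0.25) and of tubulin ligases (0.29) were above 0. These medians are descriptions of the lists and were not tested.

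**Figure D2:**
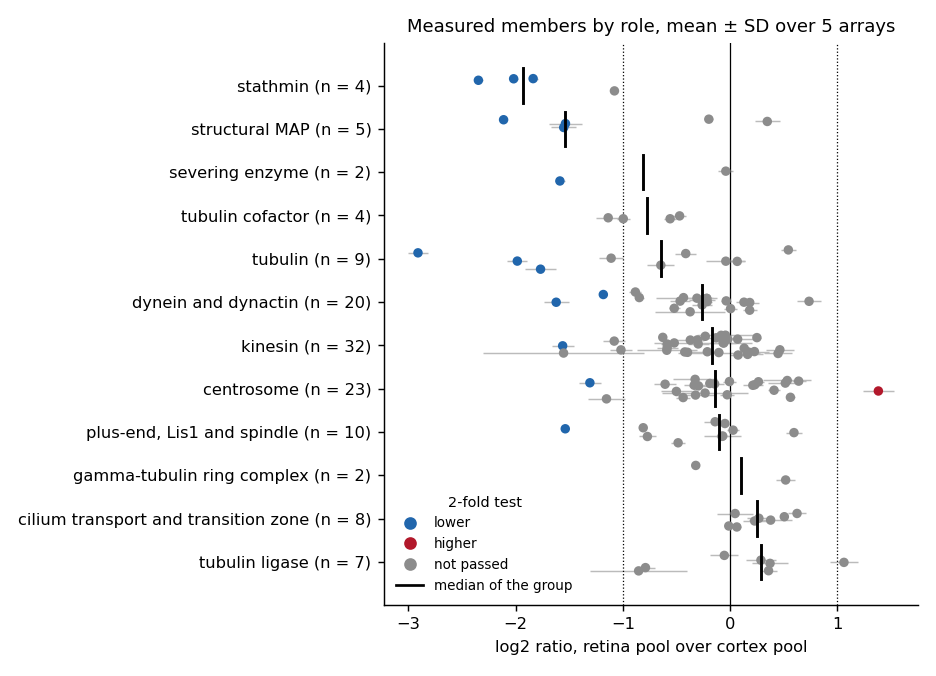
Mean log2 ratio (points) ± SD over 5 arrays (grey bars) of each measured member, by role, with the median of each group as a black line and n as the number of genes. Blue points passed the 2-fold test as lower and the red point, Cetn4, as higher. Stathmins and structural microtubule-associated proteins hold 6 of the 15 blue points in 9 genes.

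Of the 9 tubulin genes, 3 were lower in retina and none was higher, where 3.83% of all genes were lower and 2.79% higher. The beta-tubulin gene Tubb2b, which is strongly expressed in developing neurons, had the lowest ratio of the whole set and stood 15th from the bottom of all 8825 genes. It read -2.87, -2.93, -2.78, -2.98 and -2.99 on arrays 1 to 5, a mean of -2.91 ± 0.09 or 7.52-fold lower, with an adjusted p of 3.26e-07 in limma's 2-fold test. All 5 arrays lay within 0.21 log2 of each other. The alpha-tubulin gene Tuba1b read -1.58, -1.97, -1.74, -1.81 and -1.73, or 3.40-fold lower (-1.77 ± 0.14, adjusted p 0.000119). The alpha-tubulin gene Tuba3a read -2.06, -1.97, -1.94, -2.09 and -1.86, or 3.96-fold lower (-1.98 ± 0.09, adjusted p 6.66e-06). Alpha-tubulin genes are near-identical in sequence, and so are some beta-tubulin genes, so how far a probe reads a single one was not tested.

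Other tubulins did not pass the 2-fold test. Tubb6 stood at -1.11 ± 0.11 and Tuba1c at -0.41 ± 0.10. Tubb5, a beta-tubulin used by many cell types, stood at 0.54 ± 0.07, above 0 on all 5 arrays. Delta-tubulin, Tubd1, stood at -0.65 ± 0.13, gamma-tubulin, Tubg1, at -0.04 ± 0.18, and the pseudogene Tubb2a-ps2 at 0.07 ± 0.07. Within each array Tubb2b lay 3.33 to 3.57 log2 below Tubb5, and Tuba1b lay 1.18 to 1.54 below Tuba1c. Such differences within an array were set out for 24 pairs of related genes. They had the same sign on all 5 arrays in 21 pairs. The two-sided exact sign-flip test gave each of these 21 p = 0.0625, the smallest that 5 arrays allow (adjusted p 0.071 over the 24 pairs), so no pair could pass 0.05.

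The cofactors that fold and pair tubulin subunits were all below 0, though none of the 4 passed the 2-fold test. Tbca, a beta-tubulin chaperone, stood at -1.14 ± 0.11 and Tbcb, which acts on alpha-tubulin, at -0.996 ± 0.06. Tbce stood at -0.56 ± 0.05 and Tbcd at -0.47 ± 0.06. Limma called all 4 lower against a ratio of 0, a test that called 36.6% of all genes lower. In the gamma-tubulin ring complex, which seeds new microtubules, Tubgcp2 stood at -0.32 ± 0.03 and Tubgcp5 at 0.52 ± 0.09.

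Stathmins bind free tubulin dimers and promote the loss of subunits from microtubule ends. Of the 4 measured, 3 were lower in retina, where 3.83% of all genes were. Stmn4 read -2.33, -2.29, -2.40, -2.36 and -2.35 on arrays 1 to 5, or 5.09-fold lower (-2.35 ± 0.04, adjusted p 2.21e-07). Stmn1, the founding member of the family, read -1.99, -2.06, -1.97, -2.03 and -2.04, or 4.05-fold lower (-2.02 ± 0.04, adjusted p 6.80e-07). Stmn2, known as SCG10 of growth cones, read -1.79, -1.88, -1.81, -1.83 and -1.88, or 3.57-fold lower (-1.84 ± 0.04, adjusted p 1.69e-06). The arrays of Stmn4 did not overlap those of Stmn1 or Stmn2. The 2 probes of Stmn2 read -1.97 ± 0.05 and -1.70 ± 0.04, both past the test on their own. Stmn3 was between -1.12 and -1.04 on all arrays and did not pass, at -1.08 ± 0.03 with an adjusted p of 0.116. It lay 0.69 to 0.82 log2 above Stmn2 on the same arrays.

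Of the 5 structural microtubule-associated proteins, 3 were lower in retina, where 3.83% of all genes were. All 3 are abundant in neurons. Tau, Mapt, the main microtubule-associated protein of axons, read -2.08, -2.11, -2.11, -2.16 and -2.10, or 4.32-fold lower (-2.11 ± 0.03, adjusted p 3.76e-07). Its 3 probes stood at -2.65 ± 0.08, -1.94 ± 0.15 and -1.75 ± 0.05, each past the 2-fold test on its own, so the size of the ratio differed between probes and its sign did not. Map1b, which is abundant in growing axons, read -1.58, -1.62, -1.47, -1.68 and -1.40, or 2.93-fold lower (-1.55 ± 0.11, adjusted p 0.000267). Map2, of dendrites, read -1.69, -1.59, -1.37, -1.66 and -1.37, or 2.90-fold lower (-1.53 ± 0.16, adjusted p 0.0012). Arrays 3 and 5 were the highest of the 5 for both Map1b and Map2. The immature neuron markers, with means from -3.99 for Dcx to -2.30 for Dpysl3, were lower in the same comparison, and their part in the ratios of tubulins, stathmins and these genes was not tested.

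Map1s and Map4, which are expressed far beyond neurons, did not pass. Map1s stood at -0.20 ± 0.04. Map4 stood at 0.35 ± 0.11, and its 3 probes disagreed: 1 probe read 1.30 ± 0.05 and passed the 2-fold test on its own (adjusted p 0.000421), while the others read 0.02 ± 0.33 and -0.28 ± 0.39. Map2 lay 1.67 to 2.07 log2 below Map4 on the same arrays, and Map1b 1.21 to 1.48 below Map1s.

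**Figure D3:**
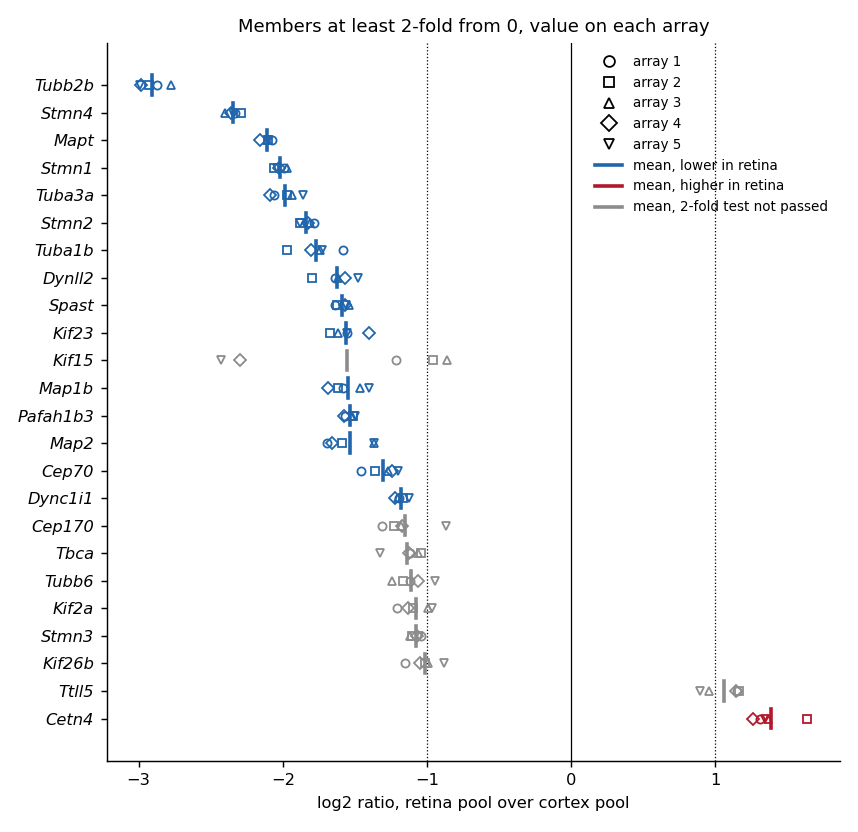
Log2 ratio on each of the 5 arrays (open symbols) and mean (bars) of the members whose mean lay at least 2-fold from 0 (dotted lines). The arrays of a called gene lie close together, which the test itself favours, with Tubb2b lowest at -2.91. The 5 arrays of Kif15, which was not called, spread from -2.43 to -0.86.

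The RefSeq promoter table (build GRCm38.p6) holds 9 called members, of which 4 are printed as examples: an alpha-tubulin and a pair of microtubule-associated proteins that were lower, and Cetn4, which was higher. Each sequence is the 250 bases before the annotated start of the gene, 5′ to 3′ on the gene's strand. Capitals mark matches on either strand of 5 motifs. The first is the GC box, spelled GGGCGG. The next is the box spelled CCAAT, and another is the TATA box, searched as TATAAA. The remaining motifs are an E-box that neuronal bHLH factors bind, spelled CAGCTG, and the core that photoreceptor factors such as CRX and OTX2 bind, spelled TAATCC.
Tuba1b, chr15:98934391-98934640, minus strand: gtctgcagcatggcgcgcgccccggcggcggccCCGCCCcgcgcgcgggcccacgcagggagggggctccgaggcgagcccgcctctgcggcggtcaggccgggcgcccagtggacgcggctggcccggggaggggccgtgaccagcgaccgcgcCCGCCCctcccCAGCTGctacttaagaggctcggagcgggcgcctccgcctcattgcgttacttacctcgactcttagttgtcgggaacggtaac
Map1b, chr13:99516603-99516852, minus strand: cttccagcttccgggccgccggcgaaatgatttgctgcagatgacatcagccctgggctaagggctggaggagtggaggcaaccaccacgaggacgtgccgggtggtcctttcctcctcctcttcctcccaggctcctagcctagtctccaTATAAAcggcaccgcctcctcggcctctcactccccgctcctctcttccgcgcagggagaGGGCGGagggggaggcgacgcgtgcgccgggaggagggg
Map2, chr1:66175079-66175328, plus strand: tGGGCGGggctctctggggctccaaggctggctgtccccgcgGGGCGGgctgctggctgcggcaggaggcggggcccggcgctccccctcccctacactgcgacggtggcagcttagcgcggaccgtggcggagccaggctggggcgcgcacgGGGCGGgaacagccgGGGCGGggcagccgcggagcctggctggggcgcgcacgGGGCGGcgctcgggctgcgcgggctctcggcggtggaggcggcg
Cetn4, chr3:37312447-37312696, minus strand: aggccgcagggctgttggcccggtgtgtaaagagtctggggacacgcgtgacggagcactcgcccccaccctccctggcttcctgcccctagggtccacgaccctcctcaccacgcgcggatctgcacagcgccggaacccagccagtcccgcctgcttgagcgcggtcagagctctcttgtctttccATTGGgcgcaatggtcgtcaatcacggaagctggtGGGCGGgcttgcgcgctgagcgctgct
GC boxes stand in all 4 windows, with 5 in that of Map2, 2 in that of Tuba1b and 1 each in those of Map1b and Cetn4. Of the 5 motifs, Map1b also holds 1 TATA box, Tuba1b 1 CAGCTG and Cetn4 1 CCAAT.

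Over the 9 promoters of called members in the table, 8 held a GC box, or 88.9%, while 54.5% of 112 promoters of measured members and 32.7% of all 32851 promoters did. The full table also holds promoters of noncoding genes. A CCAAT box stood in 3 of the 9, or 33.3%, against 33.8% of all promoters, a CAGCTG in 2, or 22.2%, against 13.0%, and a TATA box in 1, or 11.1%, against 12.4%. No TAATCC match stood in the 9 windows, against 6.25% of all promoters. Matches of different motifs were counted separately, overlapping ones included, and each match describes letters only. The other promoters counted, those of Tuba3a, Spast, Kif23, Dync1i1 and Cep70, are not printed, and those of Dynll2, Mapt, Pafah1b3, Stmn1, Stmn2, Stmn4 and Tubb2b were not used here.

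Spastin, Spast, cuts microtubules and is mutated in a hereditary spastic paraplegia. It read -1.64, -1.62, -1.54, -1.57 and -1.56, or 3.00-fold lower in retina (-1.59 ± 0.04, adjusted p 1.00e-05). The katanin-like Katnal1 stood at -0.04 ± 0.07. Among plus-end and Lis1 genes, 1 of 10 passed, where 6.62% of all genes did. This was Pafah1b3, a catalytic subunit of the brain platelet-activating factor acetylhydrolase that associates with Lis1. It read -1.57, -1.52, -1.52, -1.58 and -1.50, or 2.90-fold lower (-1.54 ± 0.03, adjusted p 1.07e-05).

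Lis1 itself, Pafah1b1, whose loss causes lissencephaly, stood at -0.77 ± 0.08 and did not pass. Its probes disagreed, with means of -1.39 ± 0.09, -0.96 ± 0.17 and 0.04 ± 0.10, and the first passed alone (adjusted p 0.000748). The dynein regulators that bind Lis1, Nde1 (0.03 ± 0.06) and Ndel1 (-0.07 ± 0.17), had means within 1 SD of 0. The end-binding proteins, which track growing plus ends, stood apart from each other: Mapre1 at -0.81 ± 0.02, Mapre2 at -0.08 ± 0.06 and Mapre3 at 0.60 ± 0.08. Mapre1 lay 1.29 to 1.52 log2 below Mapre3 on every array. The 3 complete probes of Mapre1 read -1.45 ± 0.03, -0.80 ± 0.03 and -0.18 ± 0.02, and a further one without a value on array 5 read 0.40 ± 0.17 on the other 4. The cortical anchoring factors Clasp1 (-0.14) and Clasp2 (-0.05) differed by no more than 0.21 on any array, and the difference changed sign between arrays.

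**Figure D4:**
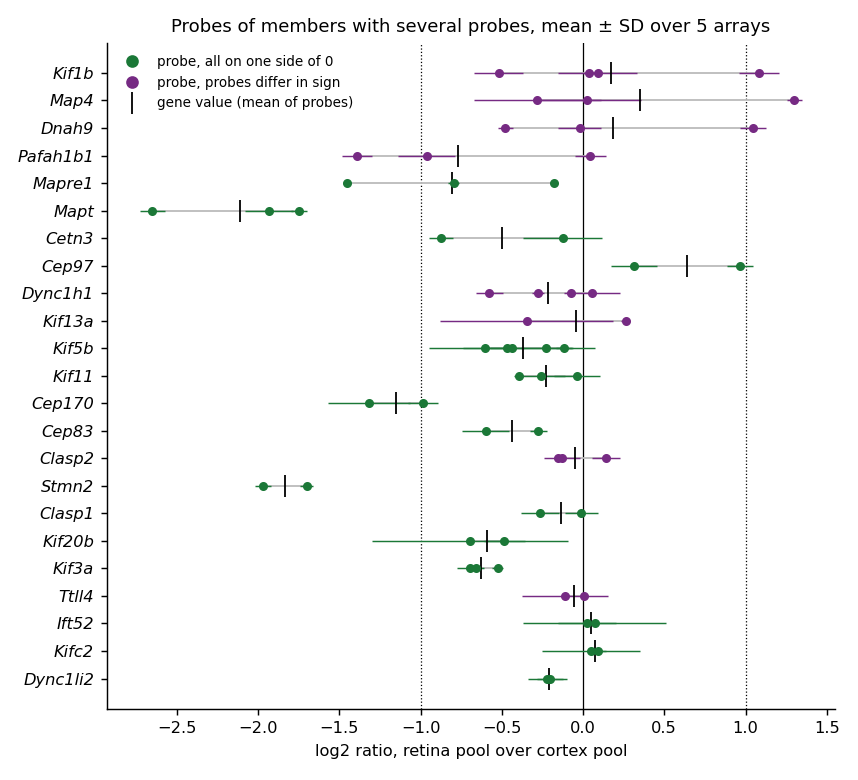
Mean log2 ratio ± SD over 5 arrays of each probe, for the 23 members with more than 1 complete probe, ordered by the range between probes. Probes of 8 genes differed in sign (purple), widest for Kif1b, Map4, Dnah9 and Pafah1b1, while those of Mapt and Stmn2 all lay below -1.

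Probes of a gene did not always agree. Of 23 members with several complete probes, 8 differed in sign between probes, or 34.8%, against 40.7% of 2087 genes in all, and the median range was 0.36 log2, against 0.38. Of the 16 called genes only Mapt and Stmn2 had several probes. The other 14 rest on 1 probe each. When each probe was tested by itself, 20 member probes were lower and 2 were higher, of 164, where 3.98% and 2.78% of all probes were.

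Cytoplasmic dynein subunits differed from each other. Of 20 dynein and dynactin genes, 2 were lower and none was higher, where 3.83% of all genes were lower and 2.79% higher. The light chain gene Dynll2 read -1.64, -1.80, -1.62, -1.57 and -1.48, or 3.08-fold lower (-1.62 ± 0.12, adjusted p 0.000159), with array 2 lowest and array 5 highest. The intermediate chain gene Dync1i1, found mainly in neurons, read -1.20, -1.17, -1.20, -1.22 and -1.12, or 2.27-fold lower (-1.18 ± 0.04, adjusted p 0.0029). Dync1i1 no longer passed with arrays scaled to one spread (adjusted p 0.18) or without arrays 1 and 4 (adjusted p 0.107), over alternatives that gave adjusted p from 0.0017 to 0.18. Their paralogs Dynll1 (-0.88 ± 0.06) and Dync1i2 (-0.85 ± 0.04) did not pass. Neither did the other light chains Dynlrb2 (-0.43 ± 0.26) and Dynlt3 (-0.31 ± 0.19).

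The heavy chain gene Dync1h1, the motor itself, stood at -0.22 ± 0.03, with 4 probes from -0.58 to 0.05. The light intermediate chains Dync1li1 (-0.26 ± 0.12) and Dync1li2 (-0.21 ± 0.05) had a difference that changed sign between arrays, from -0.15 to 0.05. In dynactin, the complex that links dynein to cargo, Dctn1 stood at 0.74 ± 0.11, above 0 on all arrays, and Dctn2 at -0.52 ± 0.05. Dctn3, Dctn4, Dctn5 and Dctn6 lay between -0.47 and -0.04. None of the 6 passed the 2-fold test.

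Axonemal dynein heavy chains drive the beating of motile cilia, and none of the 5 measured passed. Dnah1 (0.01 ± 0.06), Dnah5 (0.13 ± 0.07) and Dnah7c (0.18 ± 0.09) lay near 0, and Dnah10 stood at -0.37 ± 0.33. Dnah9 stood at 0.18, the mean of 3 probes at 1.05 ± 0.08, -0.02 ± 0.13 and -0.48 ± 0.05.

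Of 32 kinesin genes, including the light chain Klc1 that links kinesin-1 to cargo, 1 was lower in retina and none was higher. Over all genes, 3.83% were lower and 2.79% higher. Kif23, a kinesin of the central spindle needed for cytokinesis, read -1.56, -1.67, -1.62, -1.40 and -1.55, or 2.95-fold lower (-1.56 ± 0.10, adjusted p 0.000154). Kif15, another spindle kinesin, had nearly the same mean at -1.55 but an SD of 0.75 and did not pass (adjusted p 0.58). Its arrays formed 2 sets, with -1.21, -0.96 and -0.86 on arrays 1 to 3 and -2.30 and -2.43 on arrays 4 and 5. The split was not particular to Kif15. Kif20b read -0.52, -0.34 and -0.33 on arrays 1 to 3 and -0.97 and -0.78 on arrays 4 and 5. Kif16b, Kif9 and Ttll4 were also lower on arrays 4 and 5 than on the others, while Ift122 was higher there.

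Kinesins of cell division had a median of -0.42 over 11 genes. Against a ratio of 0, limma called 8 of the 11 lower and 2 higher, where it called 36.6% of all genes lower and 36.9% higher. Kif20b stood at -0.59 ± 0.28, Kif4 at -0.59 ± 0.10, the microtubule depolymerase Kif2c at -0.52 ± 0.19, Kif20a at -0.42 ± 0.04 and the spindle motor Kif11 at -0.23 ± 0.03. Kif18b stood at -0.08 ± 0.02. Kif18a stood at -0.06 ± 0.26, and a further probe of it without a value on array 4 read -0.78 ± 0.74 on the other 4. Both Kif22 (0.16 ± 0.14) and Kif14 (0.46 ± 0.13) had means above 0. The spindle assembly factor Tpx2 stood at -0.48 ± 0.07. Of 8 measured markers of dividing cells, 4 were lower in retina, and the 8 means ran from -1.82 for Mcm6 to -0.07 for Pcna, with Mki67 at -0.44. Their part in the kinesin ratios was not tested.

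**Figure D5:**
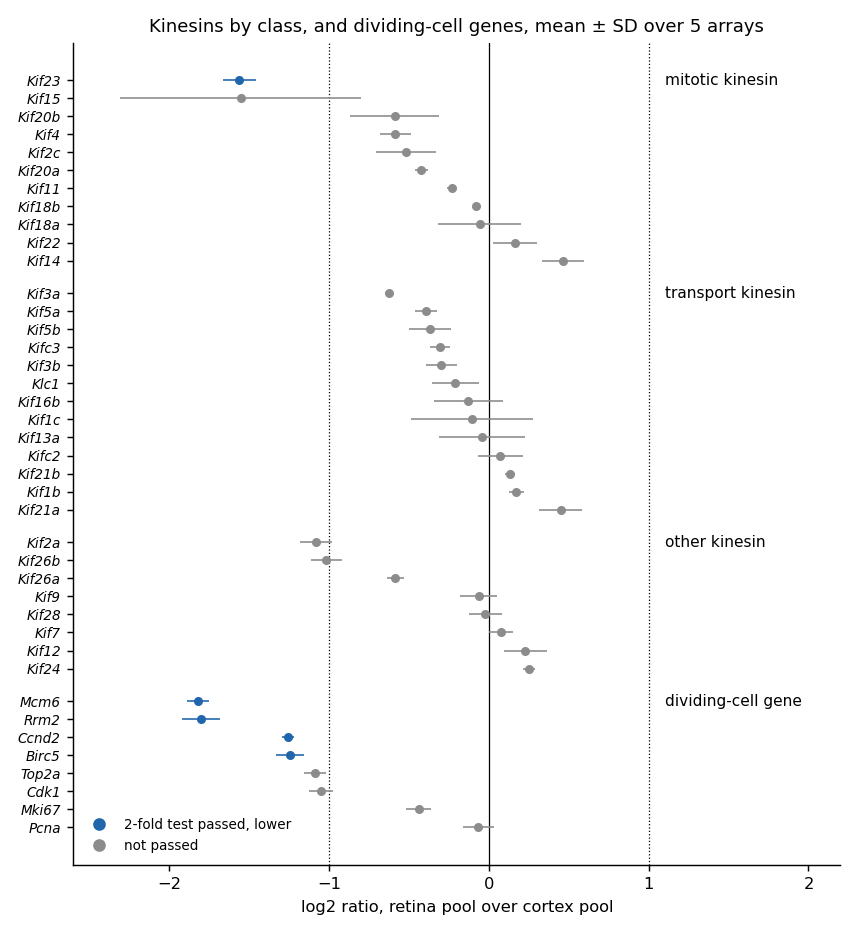
Mean log2 ratio ± SD over 5 arrays of the 32 kinesin genes by class, and of 8 marker genes of dividing cells. Kif23 is the only kinesin past the 2-fold test (blue), the wide bar is that of Kif15, and transport kinesins lie between -0.63 and 0.45.

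Transport kinesins had a median of -0.13 over 13 genes and none past the 2-fold test. Against a ratio of 0, limma called 6 of the 13 lower and 3 higher, where it called 36.6% of all genes lower and 36.9% higher. The kinesin-2 motor subunits, which also drive intraflagellar transport, stood at -0.63 ± 0.03 for Kif3a and -0.30 ± 0.10 for Kif3b. The 3 probes of Kif3a lay within 0.17 log2 of each other. Among conventional kinesin-1 heavy chains, Kif5a stood at -0.40 ± 0.07 and Kif5b at -0.37 ± 0.13, and their difference changed sign between arrays, from -0.18 to 0.26. Kif21a stood at 0.45 ± 0.13 and Kif21b at 0.13 ± 0.03. Kif1b, a carrier of synaptic vesicle precursors and mitochondria, stood at 0.17 with 4 probes from -0.52 to 1.08. The minus-end kinesins Kifc3 (-0.31 ± 0.06) and Kifc2 (0.07 ± 0.14) and the light chain Klc1 (-0.21 ± 0.15) did not pass. Kif16b, Kif1c and Kif13a, carriers of vesicles, lay between -0.13 and -0.04, with Kif1c the most variable (SD 0.38). The 2 probes of Kif13a differed in sign, at -0.35 ± 0.53 and 0.26 ± 0.03.

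The remaining 8 kinesins had a median of -0.04. Kif2a, a depolymerase that restrains axon branching, stood at -1.08 ± 0.10 with an adjusted p of 0.67. Kif26b stood at -1.02 ± 0.10 and Kif26a at -0.59 ± 0.05, both below 0 on all 5 arrays. The hedgehog pathway kinesin Kif7 (0.08 ± 0.08), Kif9 (-0.06 ± 0.12) and Kif28 (-0.02 ± 0.10) had means within 1 SD of 0, and Kif12 (0.23 ± 0.13) and Kif24 (0.25 ± 0.04) lay above it.

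No measured member of the cilium transport and transition zone group passed the 2-fold test in either direction. Of 8 measured genes of intraflagellar transport and the transition zone, 7 had means above 0, and limma called 5 higher and none lower against a ratio of 0, a test that called 36.9% of all genes higher and 36.6% lower. Ift172 stood at 0.63 ± 0.09, Ift80 at 0.51 ± 0.02, Ift122 at 0.38 ± 0.20, the transition zone gene Tctn3 at 0.27 ± 0.11 and Ift74 at 0.23 ± 0.11. Ift80 read 0.47, 0.51, 0.51, 0.52 and 0.52, the narrowest spread of these. Ift88 (0.06 ± 0.04), Ift52 (0.05 ± 0.17) and Ift140 (-0.01 ± 0.03) lay close to 0.

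Of 7 ligases that add amino acids to the tails of tubulin, none passed the 2-fold test, and their means ran from -0.85 to 1.06. Against a ratio of 0, limma called 4 higher and 2 lower, where it called 36.9% of all genes higher and 36.6% lower. Ttll5, a glutamylase mutated in a retinal dystrophy, came nearest, with 1.15, 1.17, 0.96, 1.14 and 0.89 on the arrays and a mean of 1.06 ± 0.13. Ttll6 (0.37 ± 0.17), Ttll11 (0.36 ± 0.08) and Ttll3 (0.29 ± 0.14) were above 0 on all 5 arrays. Ttll12 stood at -0.79 ± 0.09 and Ttll4 at -0.05 ± 0.13. Ttll10 stood at -0.85 ± 0.45, with array 5 at -1.64 and the others between -0.73 and -0.46.

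Centrosome genes were spread on both sides of 0, with 1 higher and 1 lower of 23. The 2-fold test called 2.79% of all genes higher and 3.83% lower. Cetn4, a centrin found in ciliated cells, read 1.31, 1.64, 1.36, 1.26 and 1.35, or 2.61-fold higher in retina (1.38 ± 0.15). Array 2 was apart from the others, and the lowest array was still above 1. The centrins Cetn2 (0.23 ± 0.03) and Cetn3 (-0.50 ± 0.15) did not pass, and Cetn4 lay 1.03 to 1.38 log2 above Cetn2 on every array. Cetn3 had 2 probes, at -0.87 ± 0.07 and -0.13 ± 0.24.

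Cep70, a centrosomal protein that binds gamma-tubulin, read -1.46, -1.36, -1.27, -1.24 and -1.20, or 2.47-fold lower (-1.31 ± 0.10, adjusted p 0.0034). It did not pass with arrays scaled to one spread, at -1.32 with an adjusted p of 0.069, the highest over its 16 alternatives at base 10, where the lowest was 0.0027. Cep170 had a mean of -1.15 ± 0.17 and an adjusted p of 0.38, and without array 5, which read -0.87 against -1.31 to -1.17 on the others, it passed at -1.22 (adjusted p 0.011, and up to 1 under the other alternatives). Its paralog Cep170b stood at -0.29 ± 0.09, 0.67 to 0.97 above Cep170 on the same arrays. Cep97 (0.64 ± 0.07), Cep44 (0.56 ± 0.04), Cep350 (0.53 ± 0.22), Cep95 (0.52 ± 0.16) and Cep41 (0.41 ± 0.05) had the highest means after Cetn4. The other centrosome genes lay between -0.61 for Cep68 and 0.27 for Cep19: Cep83, Cep192, Cep112, Cep295, Cep57l1, Cep57, Cep164, Cep89, Cep55 and Cep120 stood inside that range.

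A list of other microtubule and cilium genes gave 7 lower of 97 measured, or 7.22%, against 3.83% of all genes, and 2 higher, or 2.06%, against 2.79%. The other 88 did not pass, and the median was -0.17. The lower ones included 2 of 3 listed doublecortin and doublecortin-like kinase genes, Dcx at -3.99 ± 0.04 and Dclk1 at -2.24 ± 0.08, which bind microtubules in migrating neurons, while Dclk2 stood at -0.33 ± 0.08 and did not pass. Crmp1 (-1.93 ± 0.08), a semaphorin signalling protein, and the kinesin adaptor Fez1 (-1.84 ± 0.12) were lower too. Eml2 (-1.76 ± 0.23), Map9 (-1.75 ± 0.05), a protein of microtubule bundles, and Ckap2 (-1.31 ± 0.05), of the spindle, were the rest. The higher genes were Bicdl1, a dynein adaptor, at 2.76 ± 0.08 or 6.80-fold, and Map7, which recruits kinesin-1, at 2.53 ± 0.08 or 5.78-fold. Each stood farther above 0 than Cetn4. The list holds no Bbs gene of the cilium. The measured genes with a Bbs symbol, Bbs2 (1.66 ± 0.34), Bbs4 (1.36 ± 0.08) and Bbs7 (1.92 ± 0.22), all passed the 2-fold test as higher. The related Bbip1 (-0.25 ± 0.07) did not pass. The share of listed genes called higher therefore depends on how the list was drawn up. Dcx, counted here as lower, is also among the immature neuron markers.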

How the data were processed

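The 5 two-colour arrays of 1 retina and 1 cortex RNA pool were used. The authors' deposited table holds 1 log10 ratio per probe and array. Base 10 is likely, because values stop exactly at 2 and -2. How background and dyes were corrected, what was filtered and which scanner software ran is not stated here. Column medians were 0 on arrays 1 to 4 and -7.32e-05 on array 5, by an unknown method. Spot intensities were not used here: how far signals stood above background is unknown, and precision is limited by the number of arrays.

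Multiplying by 3.32 put the ratios on the log2 scale, and an exact 0 was read as no value (174 to 406 probes per array, but 1068 on array 4). Of 21446 probes, 11813 had 1 gene symbol, 559 several and 9074 were not listed. Probes complete over the 5 arrays (11529) were averaged by gene, giving 8825 genes. Testing used limma 3.58.1 (R 4.3.3; lmFit with an intercept): treat at a minimum log2 ratio of 1, and eBayes against 0, two-sided, with Benjamini-Hochberg adjustment over all genes and a threshold of 0.05. On simulated data of 8825 genes for this comparison the 2-fold test recovered 94% of genes changed by 1.5 log2 and 98% of those changed by 2. The noise was normal and independent, with each gene's SD between arrays. Changes between 1 and 1.5 log2, where Dync1i1, Cep70 and Cetn4 lie, were not simulated. A further 8 members had means at least 2-fold from 0 and did not pass. All of these but Kif15 lie in that range too, so how often the test misses such changes is unknown. Every member could be named. Members past the test are given on all arrays. Of other listed genes, those past the test, up to 6 in each direction, were named, with unmeasured ones left out. Members, lists and related pairs were chosen with earlier results of these data known, and the pairs, kinesin classes and motifs after the values were seen. Centring, scaling, missing values, probe choice, log base, priors, weights, minimum fold and left-out arrays were varied.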

Additional observations from a re-analysis of the deposited data

Results flagged for a closer look

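In 8 of 126 members, 1 array lay far from the other 4, or 6.35%, where chance gives about 5%. Cetn4 read 1.64 on array 2 and 1.26 to 1.36 elsewhere. Also on array 2, the dynein light chain Dynlrb2 read -0.88 (others -0.39 to -0.22) and gamma-tubulin, Tubg1, -0.36 (others 0.02 to 0.07). On array 5, Kif1c read -0.79 where the others read 0.05 to 0.08, Kif3b -0.12 where they read -0.35 to -0.32, and the ligase Ttll10 -1.64 where they read -0.73 to -0.46. Cep83 read -0.55 on array 3 (others -0.43 to -0.39), and Kifc2 0.32 on array 1 (others -0.02 to 0.04). Of these 8 genes, Cetn4 alone passed the 2-fold test.

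Probes annotated with several gene symbols, of which at least 1 is of these families, entered no comparison. There were 19 of them, all with a value on every array, and 2 passed limma's 2-fold test as lower in retina, at -1.63 ± 0.07 and -1.71 ± 0.10. They are not named, since the annotation does not say which gene they read.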

How the results depend on the processing

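The fit without arrays 1 and 4 was chosen after seeing the data. No paired analysis was possible because the arrays form 1 group. Reading the deposited values as log2 left 0 members past the 2-fold test, 0 at an unadjusted p below 0.05, with 102 against a ratio of 0, a median ratio of -0.065 and a median SD of 0.027. A minimum of 1.5-fold gave 30 members (28 lower, 2 higher) and one of 4-fold gave 2. The median ratio was -0.25 with the median probe (the lower of the middle pair where probes were even in number) and with the probe farthest from 0, and -0.14 with the probe nearest to 0. The median SD was 0.121 with arrays scaled to one spread and 0.097 with the median probe. With each array left out in turn, 16 to 17 members passed the 2-fold test and 99 to 102 the test against 0, with medians of -0.22 to -0.20 and median SDs of 0.071 to 0.095. The counts of members in this paragraph are given without the share of all genes under the same setting. They describe the members alone and not their excess over all genes. Among members that differed from 0, with the probe nearest to 0, Dnah9 turned to -0.020 (as with the median probe), Dync1h1 to 0.054 and Pafah1b1 to 0.045. Kif13a, which did not differ from 0, read 0.26 there and 0.067 without array 2, and Kif18a -0.35 with probes measured on at least 3 arrays and 0.043 without array 2. With the probe farthest from 0, Map4 (1.30), Mapre1 (-1.45) and Pafah1b1 (-1.39) passed. At base 10, 253 of 256 alternative values of called members kept their sign and side, the exceptions being Cep70 and Dync1i1. Many of these values could hardly change. All called genes but Mapt and Stmn2 have 1 probe, so probe choice could not move their ratios. Their probes had a value on every array, so neither the reading of an exact 0 nor the number of arrays asked for could. The causes were not tested.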
